A study of Mus musculus with 37 samples.

Results

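The genes described here are 33 genes of DNA damage signalling and repair, taken by name from the study's tables. All 33 were found in each of the 3 tables, among 30892 genes in mouse cardiac fibroblasts (CFs), 20158 genes in neonatal rat ventricular myocytes (NRVM) and 31053 genes in single non-myocytes of the injured mouse heart. They were grouped by role. Homologous recombination is held by 9 genes (Brca1, Brca2, Palb2, Bard1, Rad51c, Xrcc2, Xrcc3, Rad54l and Rad54b) and the Fanconi anemia pathway by 9 (Fanca, Fancb, Fancc, Fancg, Fancl, Fancm, Fancd2, Fanci and Brip1). Checkpoint kinases are 4 (Atm, Atr, Chek1 and Chek2), genes of break sensing and end resection 6 (Mre11a, Rad50, Nbn, Rbbp8, Exo1 and Blm), and genes of lesion recognition and bypass 5 (Xpc, Ddb2, Polh, Polk and Msh6).

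In outline, a broken DNA end is bound by the Mre11-Rad50-Nbn complex, which calls in the kinase Atm, and its strands are trimmed back by nucleases before Brca1 and Brca2 direct repair from the sister chromatid. Stalled replication forks call in Atr and its effector Chek1, and crosslinks between strands are handled by the Fanconi pathway, in which a core complex ubiquitinates the Fancd2-Fanci pair. Many genes of recombination, of the Fanconi pathway and of end resection are transcribed mainly in cells that replicate DNA, through E2F factors, whereas Xpc is known as a p53 target gene. After myocardial infarction cardiac fibroblasts leave quiescence and divide, while ventricular myocytes largely do not.

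The study asks how ENPP1, an ectoenzyme that hydrolyses extracellular ATP to AMP and pyrophosphate, acts on the healing heart, and the conditioned media ask what myocytes release to fibroblasts when they meet these nucleotides. Medium conditioned by myocytes (MCndM) that had been given vehicle, ENPP1, ATP, ENPP1+ATP or AMP was put on CFs for 24 h or 48 h (2 libraries per medium and time, 20 in all), after 24 h without serum, and on NRVM for 24 h (3 libraries per medium, 15 in all). The CFs were an immortalized wild type C57BL/6 line, the NRVM were prepared from neonatal Sprague-Dawley rats, and every group within an experiment shared its cells and base medium. The single cells were the non-myocytes of hearts 7 days after myocardial infarction, from ENPP1CKO animals, in which ENPP1 fl/fl is deleted by the tamoxifen-driven Col1a2CreERT in cells that use the Col1a2 promoter, and from control animals labelled wild type, with 1 library each and 37 samples in the series. The study's methods describe immortalization with the SV40 antigen, which is known to bind p53 and the retinoblastoma protein, and do not say which line was sequenced, so that the CFs may stand for 1 line only. The study states that its n counts biological replicates, and it gives n = 2 for the CF sequencing. Whether the CF or NRVM libraries of a group came from separate cultures is not given in the sources used here. Nor is the number of hearts in each single-cell library. The p-values thus measure the spread between these libraries, which may be technical.

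CF libraries held 32184799 to 115824659 counts (median 43133824.5, the largest being the 24 h vehicle library of replicate 1) and NRVM libraries 13481389 to 16977980. All 33 genes passed the filter on low counts in both experiments, so that no gene is left out of the counts below, among 17879 genes tested in CFs and 13461 in NRVM. Levels are counts per 1000000 counts (CPM) scaled by TMM factors, differences are log2 fold changes with their standard error (SE) from edgeR's quasi-likelihood fit, and a difference was called at an adjusted p under 0.05 over all genes tested. Of 8 fibroblast markers 6 were at 1 CPM or more in every CF library, while Lum was under 1 CPM in all of them. Of 6 cardiomyocyte markers 4 also reached 1 CPM in every CF library. The 5 cardiomyocyte markers of the rat table reached 1 CPM in every NRVM library, as did 7 of 7 fibroblast and 5 of 7 endothelial markers. This limit alone does not name the cells present, and the summed marker levels are given below.

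In CFs the damage response genes rose broadly at 24 h under ENPP1+ATP MCndM compared with vehicle MCndM. Of the 33 genes 28 were called higher and 0 lower, where 23.9% of all genes tested were called higher and 25.3% lower. The count of lower genes was also 0 at an unadjusted p under 0.05 and 0 by DESeq2. Both ENPP1+ATP libraries lay above both vehicle libraries in 30 genes and below them in 1, and the groups overlapped in 2, where 37.3% of all genes tested lay above and 38.9% below, so that groups of 2 libraries that do not overlap are common. The median log2 fold change of the 33 genes was 0.68 and that of all genes tested was 0.00. Summed over the 33 genes, the level was 1437 to 1446 CPM in the vehicle libraries and 2332 to 2373 CPM in the ENPP1+ATP libraries. In bulk libraries such as these, fewer cells that express a gene and less RNA per cell cannot be told apart. By role, 7 of 9 genes of homologous recombination, 8 of 9 of the Fanconi pathway, 2 of 4 checkpoint kinases, 6 of 6 of break sensing and resection and 5 of 5 of lesion recognition and bypass were called higher, with medians of 0.93, 0.53, 0.14, 0.66 and 0.69. The genes not called were Rad51c, Xrcc3, Fancc, Atm and Atr, and Xrcc2 and Fancl lost their calls when any 1 of 3 of the 4 libraries was left out.

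**Figure D1:**
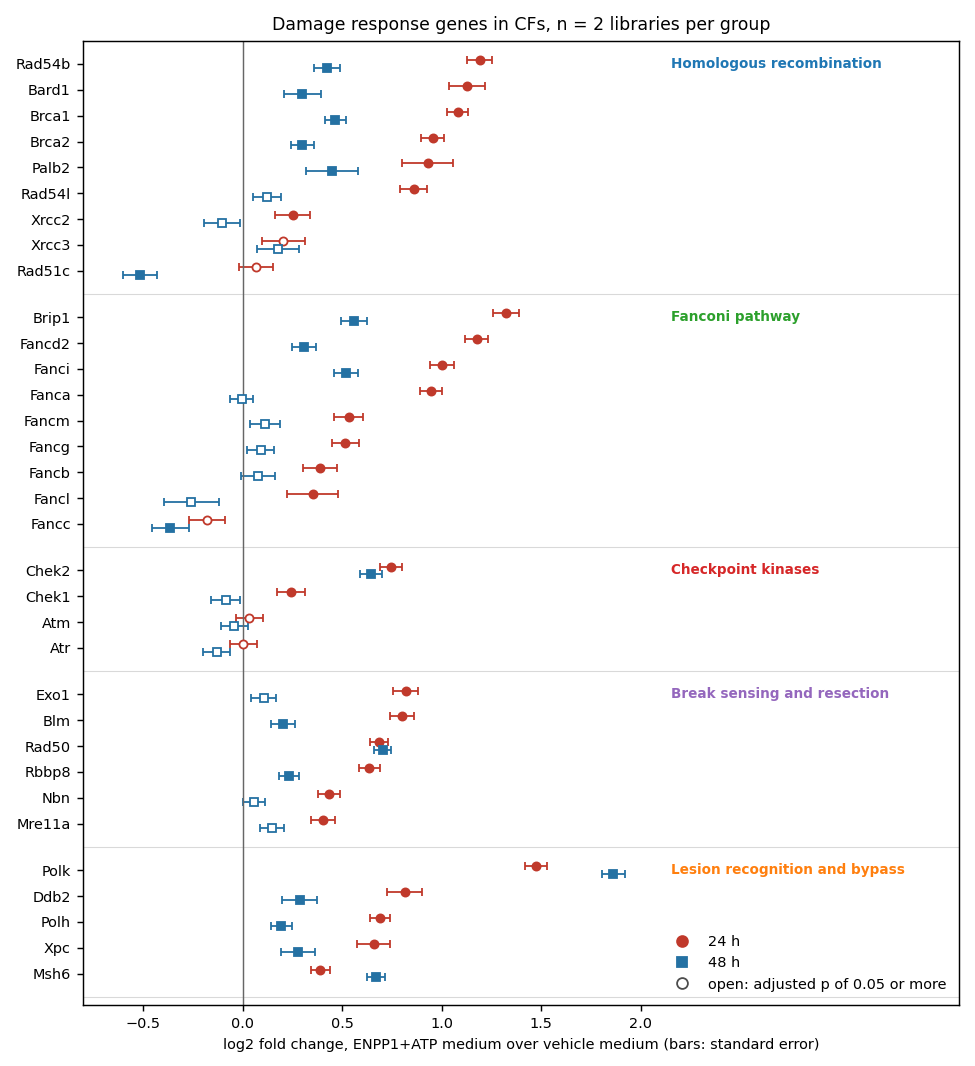
Log2 fold change of each of the 33 genes in CFs under ENPP1+ATP MCndM against vehicle MCndM, at 24 h (red circles) and 48 h (blue squares), grouped by role, with bars for the SE of the edgeR fit and open symbols where the adjusted p was 0.05 or more. At 24 h 28 genes are filled on the higher side and at 48 h 17 are, with Polk farthest to the right at both times and Rad51c and Fancc filled on the lower side at 48 h.

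Among the genes of homologous recombination, Brca1, the scaffold that directs broken ends into recombination, stood at 94.2 and 91.4 CPM in the vehicle libraries and 197 and 196 CPM in the ENPP1+ATP libraries at 24 h. Both treated libraries lay above both vehicle libraries, and the log2 fold change was 1.08 ± 0.053 (adjusted p = 2.5e-14). Bard1, the partner that forms a ubiquitin ligase with Brca1, went from 19.04 and 19.6 CPM to 44.3 and 39.95 CPM, again without overlap (1.13 ± 0.090, adjusted p = 1.5e-10). Brca2, which acts at single-stranded DNA during recombination, went from 44.2 and 44.2 CPM to 87.2 and 84.3 CPM (0.95 ± 0.058, adjusted p = 1.3e-12), and Palb2, the bridge between Brca1 and Brca2, rose by 0.93 ± 0.13. The largest rise of this role was that of Rad54b, a translocase that assists strand invasion, with 31.3 and 30.02 CPM in the vehicle libraries against 72.4 and 67.9 CPM (1.19 ± 0.064, adjusted p = 1.2e-13). Its relative Rad54l rose by 0.86 ± 0.068. The accessory recombination factors moved least, with 0.25 ± 0.088 for Xrcc2 (adjusted p = 0.02), 0.20 ± 0.11 for Xrcc3 (adjusted p = 0.12) and 0.07 ± 0.084 for Rad51c (adjusted p = 0.54). Of the exon bases of Rad54b 35.9% and of those of Rad54l 15.4% are shared with annotated neighbours, and the strand setting of the counting is not given in the sources used here, so their reads may be mixed with those of the neighbours.

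In the Fanconi pathway Brip1, Fancd2, Fanci and Fanca rose most. Brip1, the helicase that binds Brca1, stood at 44.6 and 42.99 CPM in the vehicle libraries and 113 and 107 CPM in the ENPP1+ATP libraries, a 2.499-fold difference without overlap (1.32 ± 0.066, adjusted p = 3.8e-14). Fancd2 went from 33.5 and 33.99 CPM to 75.9 and 76.3 CPM (1.17 ± 0.059, adjusted p = 3.8e-14). Its partner Fanci, which is ubiquitinated with it, went from 25.3 and 26.1 CPM to 52.6 and 50.4 CPM (1.00 ± 0.060), and 16.0% of its exon bases overlap other genes, Polg among them. Within the core complex the members differed, and 10.5% of the exon bases of Fanca and 13.7% of those of Fancl are shared with other genes. Fanca went from 77.6 and 79.02 CPM to 154 and 148 CPM (0.95 ± 0.056, adjusted p = 7.7e-13), whereas Fancm, the translocase that anchors the complex on DNA, Fancg, Fancb and Fancl, its ubiquitin ligase, rose by 0.53, 0.52, 0.39 and 0.35. Fancc, another core subunit, stood at 16.7 and 17.3 CPM against 14.3 and 15.6 CPM, slightly lower in both treated libraries and not called (−0.18 ± 0.091, adjusted p = 0.11). Its values and those of Rad51c are shown because they went apart from their groups, a choice made after they were seen.

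All genes of break sensing and resection were called higher. Exo1, the exonuclease of long-range resection, stood at 33.3 and 30.96 CPM in the vehicle libraries and 58.5 and 55.1 CPM in the ENPP1+ATP libraries (0.82 ± 0.062, adjusted p = 6e-11). Blm, a helicase that acts with it, went from 36.2 and 36.4 CPM to 64.98 and 61.4 CPM (0.80 ± 0.061), and Rbbp8, known as CtIP, which starts resection, from 53.6 and 52.7 CPM to 84.7 and 80.6 CPM (0.64 ± 0.051). The groups of these 3 genes did not overlap. Within the complex that senses breaks, Rad50 went from 119 and 117 CPM to 191 and 189 CPM (0.68 ± 0.044, adjusted p = 3e-12), while Mre11a and Nbn rose by 0.40 ± 0.060 and 0.43 ± 0.056.

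The kinases that carry the signal moved unevenly. Atm, which responds to broken ends, stood at 119 and 123 CPM in the vehicle libraries and 119 and 128 CPM in the ENPP1+ATP libraries, and Atr, which responds to single-stranded DNA at forks, at 26.2 and 28.4 CPM and 26.9 and 27.7 CPM. For both the groups overlapped, with differences of 0.03 ± 0.068 (adjusted p = 0.74) and 0.00 ± 0.068 (adjusted p = 0.98). Chek2, the effector of Atm, went from 51.5 and 51.2 CPM to 83.2 and 88.8 CPM without overlap (0.74 ± 0.056, adjusted p = 5e-11). Chek1, the effector of Atr, rose less, from 30.2 and 31.1 CPM to 36.2 and 36.3 CPM (0.24 ± 0.071, adjusted p = 0.0058), and its call was lost without the 24 h vehicle library of replicate 1, the deepest library.

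Among the genes of lesion recognition and bypass, Polk, a translesion polymerase that copies past bulky adducts, had the largest rise of all 33 genes. It stood at 44.8 and 48.5 CPM in the vehicle libraries and 128 and 130.1 CPM in the ENPP1+ATP libraries at 24 h, a 2.78-fold difference (1.47 ± 0.057, adjusted p = 6.1e-16). Polh, the polymerase that copies past ultraviolet dimers, went from 51.5 and 50.9 CPM to 84.6 and 80.6 CPM (0.69 ± 0.052). Xpc, the sensor of nucleotide excision repair, went from 16.95 and 17.8 CPM to 28.9 and 25.8 CPM (0.66 ± 0.083, adjusted p = 3.1e-07). Ddb2, which finds ultraviolet lesions in chromatin, went from 15.1 and 14.3 CPM to 27.2 and 24.6 CPM (0.81 ± 0.087, adjusted p = 2.3e-08), with 23.8% of its exon bases shared with other genes, Acp2 among them. Msh6, which recognises mismatches, went from 149 and 150.1 CPM to 198 and 194 CPM (0.39 ± 0.047). The vehicle and ENPP1+ATP libraries of these 5 genes did not overlap.

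Promoters of 4 genes that were called higher in CFs at 24 h are shown, 3 for the E2F letters they hold and Polk as the gene with the largest rise. RefSeq promoters of build GRCm38.p6 (250 bases before to 50 after each start) were matched by symbol for 24 of the 33 genes. Letters of an E2F site (TTTGGCGC, TTTCGCGC, TTTCCCGC or TTTGCCGC, read on both strands) were found in 6 of these 24 genes (25%), against 2.26% of all 32851 promoters and 2.6% of the 27025 genes that have one. The 6 genes were Bard1, Brca2, Chek2, Fancg, Msh6 and Rad51c, whose log2 fold changes at 24 h were 1.13, 0.95, 0.74, 0.52, 0.39 and 0.07, so that they ran from one of the larger rises to a gene that was not called. The letters of the cell cycle homology region (TTTGAA or TTCGAA, both strands) were in 8.33% of the matched genes against 19.2% of promoters and 21.7% of genes, and CCAAT (both strands) in 58.3% against 37.4% and 41.1%. The decamer of a p53 half-site (RRRCWWGYYY, where R is A or G, W is A or T and Y is C or T) was in 4 genes. They were Brip1, Fanca, Fancg and Polk (16.7% against 8.36% of promoters and 9.55% of genes). A half-site is a part of a p53 site and not a whole one. A match describes letters only and is not a bound site. In the sequences the capitals mark E2F letters and, in Bard1, also those of the cell cycle homology region. In Polk they mark the decamer of the p53 half-site. The coordinates are chr1:71103147-71103222 on the minus strand for Bard1, chr5:150522371-150522620 on the plus strand for Brca2, chr5:110839778-110839978 on the plus strand for Chek2 and chr13:96519188-96519437 on the minus strand for Polk, and each stretch ends before the annotated start.
Bard1: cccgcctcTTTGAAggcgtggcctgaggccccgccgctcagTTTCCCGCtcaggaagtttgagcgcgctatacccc
Brca2: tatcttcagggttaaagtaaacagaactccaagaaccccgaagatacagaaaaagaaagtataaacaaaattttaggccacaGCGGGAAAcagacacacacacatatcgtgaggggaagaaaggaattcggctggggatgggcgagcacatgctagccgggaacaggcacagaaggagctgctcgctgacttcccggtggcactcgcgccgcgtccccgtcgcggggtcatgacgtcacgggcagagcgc
Chek2: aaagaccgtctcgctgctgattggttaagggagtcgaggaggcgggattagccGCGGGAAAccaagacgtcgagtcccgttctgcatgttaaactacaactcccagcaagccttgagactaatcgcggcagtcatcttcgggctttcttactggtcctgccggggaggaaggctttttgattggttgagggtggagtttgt
Polk: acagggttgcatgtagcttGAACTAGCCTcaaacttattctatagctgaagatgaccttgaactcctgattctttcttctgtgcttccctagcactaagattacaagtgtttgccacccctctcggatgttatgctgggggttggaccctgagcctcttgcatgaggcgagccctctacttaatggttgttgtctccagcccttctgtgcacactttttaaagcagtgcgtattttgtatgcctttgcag
The Polk stretch belongs to an annotated start inside the gene, and the promoter of its other start held no such decamer.

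**Figure D2:**
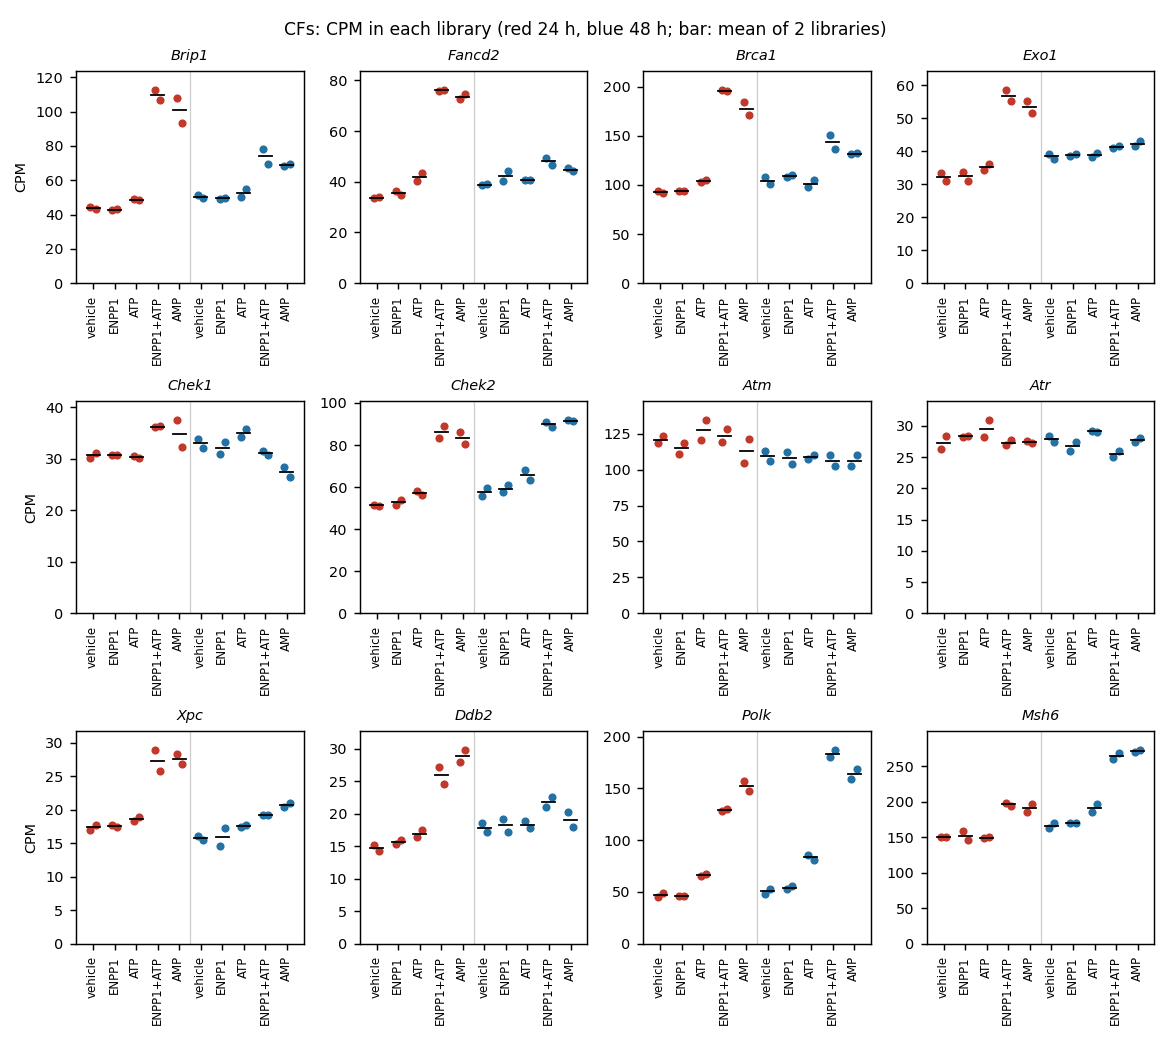
Levels in CPM of 12 of the genes in each CF library under the 5 media at 24 h and 48 h, with a dot per library and a bar for the mean of 2 libraries. Brip1, Fancd2, Brca1 and Exo1 are high under ENPP1+ATP and AMP at 24 h and nearer vehicle at 48 h, Polk, Msh6 and Chek2 stay high at 48 h, and Atm and Atr show no such separation of the media.

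At 48 h the rise of most genes was smaller, and a few genes went the other way. Death of CFs under ENPP1+ATP MCndM is reported in the paper. The part of cell loss in the values below was not tested. Under ENPP1+ATP MCndM 17 of the 33 genes were called higher than vehicle and 2 lower, where 20.8% of all genes were called higher and 24.4% lower, and the members' median was 0.19 against −0.03 over all genes tested. All 17 were among the 28 called at 24 h. The summed level was 1559 to 1566 CPM under vehicle and 2030 to 2072 CPM under ENPP1+ATP MCndM. By role, 5 genes of homologous recombination, 3 of the Fanconi pathway, 1 kinase, 3 of break sensing and resection and 5 of lesion recognition and bypass were called higher. Without the 48 h vehicle library of replicate 2 the count of higher genes was 13, and Bard1, Blm, Xpc, Ddb2 and, among the lower genes, Fancc lost their calls. Palb2 lost its call without either of 2 other libraries.

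The change of the effect with time was tested as an interaction, the 48 h difference minus the 24 h difference. It was lower at 48 h in 24 of the 33 genes and higher in 2, where 14.9% of all genes were called lower and 15.1% higher, with a median of −0.43. With 1 library left out 18 to 23 genes were lower. Fanca, with 10.5% of its exon bases shared with another gene, showed the largest drop. It stood at 93.6 and 92.2 CPM under vehicle and 96.5 and 88.5 CPM under ENPP1+ATP MCndM at 48 h, with overlapping groups (−0.01 ± 0.057, adjusted p = 0.95; interaction −0.95 ± 0.080, adjusted p = 2.5e-09). Exo1 stood at 39.1 and 37.7 CPM and 41.01 and 41.6 CPM at 48 h, with both treated libraries slightly higher and no call (0.10 ± 0.063, adjusted p = 0.19; interaction −0.71). Fancd2, at 38.8 and 38.96 CPM under vehicle and 49.5 and 46.7 CPM under ENPP1+ATP, remained higher by 0.31 ± 0.059 with an interaction of −0.87. Brip1 stood at 51.2 and 49.4 CPM and 78.5 and 69.6 CPM (0.56 ± 0.066; interaction −0.76), and Brca1 at 108 and 101 CPM and 151 and 137 CPM (0.46 ± 0.053; interaction −0.62). The Brca1, Brip1 and Fancd2 groups did not overlap at 48 h, as was so for 69.8% of all genes tested. Brca2 stood at 51.6 and 53.3 CPM and 63.6 and 65.6 CPM (0.30 ± 0.059), and Rad54b at 34.7 and 34.5 CPM and 47.5 and 45.2 CPM (0.42 ± 0.064).

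The effect on Polk and Msh6 was larger at 48 h than at 24 h. Polk stood at 48.2 and 53.03 CPM under vehicle and 181 and 187 CPM under ENPP1+ATP MCndM at 48 h, a 3.63-fold difference (1.86 ± 0.057, adjusted p = 2.6e-18), which was larger than at 24 h (interaction 0.39 ± 0.079, adjusted p = 0.00049). Msh6 stood at 162 and 170.0 CPM and 260.0 and 268 CPM (0.67 ± 0.047, adjusted p = 1.6e-11), also more than at 24 h (interaction 0.28 ± 0.066, adjusted p = 0.0021). These were the 2 genes called higher in the interaction. Chek2, at 55.6 and 59.4 CPM and 90.95 and 88.7 CPM, and Rad50, at 119.7 and 120.3 CPM and 197 and 193 CPM, differed from vehicle by 0.64 ± 0.056 and 0.70 ± 0.044. Their interactions were −0.10 ± 0.079 (adjusted p = 0.38) and 0.02 ± 0.062 (adjusted p = 0.86), so that a change with time was not called. Within nucleotide excision repair, Xpc (16.1 and 15.5 CPM against 19.2 and 19.2 CPM) and Ddb2 (18.5 and 17.2 CPM against 20.98 and 22.6 CPM) remained higher by 0.28 ± 0.086 and 0.29 ± 0.088, less than at 24 h (interactions −0.38 and −0.53, the call of Xpc lost when any 1 of 3 of the 8 libraries was left out).

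The 2 genes that fell at 48 h were Rad51c and Fancc. Rad51c stood at 31.7 and 27.5 CPM in the vehicle libraries and 21.6 and 19.7 CPM in the ENPP1+ATP libraries, that is 69.9% of vehicle (−0.52 ± 0.086, adjusted p = 2.1e-05). Fancc stood at 15.96 and 17.9 CPM and 13.2 and 13.1 CPM (−0.36 ± 0.093, adjusted p = 0.0023), and 18.6% of its exon bases overlap other genes. In both the treated libraries lay below the vehicle libraries. Chek1 stood at 33.9 and 32.01 CPM and 31.5 and 30.7 CPM (−0.09 ± 0.072, adjusted p = 0.35), and its interaction was called lower (−0.33 ± 0.10, adjusted p = 0.015), a call lost without either of 2 of the 8 libraries. Atm and Atr differed from vehicle by −0.04 ± 0.069 (adjusted p = 0.65) and −0.13 ± 0.069 (adjusted p = 0.13), and together with Xrcc3 they were called at neither time.

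The times were also compared within a medium. Between 24 h and 48 h of vehicle MCndM 6 of the 33 genes were called higher (Brca2, Fanca, Fancd2, Fanci, Exo1 and Blm, by 0.21 to 0.25) and 0 lower, where 1.68% of all genes were called higher and 3.20% lower; of lower genes 1 had an unadjusted p under 0.05 and DESeq2 called 0. The count of higher genes was 0 or 1 when any 1 of the 4 libraries was left out and 17 when these 2 groups alone were fitted. Under ENPP1+ATP MCndM 2 genes were called higher at 48 h than at 24 h (Polk by 0.51 and Msh6 by 0.43) and 23 lower, where 19.5% and 21.2% of all genes were called, and under AMP MCndM 2 higher and 23 lower, where 22.3% and 20.8% were.

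The other media separate the parts of the mixture. Under ENPP1 MCndM no gene passed the test: 0 of 33 were called in either direction at 24 h and at 48 h, where 0.0% of all genes were called in each direction. At an unadjusted p under 0.05 there were 1 higher and 0 lower at 24 h and 0 in either direction at 48 h, and DESeq2 called 0 at both times. ATP MCndM moved a few. At 24 h 6 genes were called higher (Polk, Fancd2, Rad54l, Rad54b, Fanci and Rad50) and 0 lower, where 4.77% and 6.32% of all genes were, with 0 lower at an unadjusted p under 0.05 and 0 by DESeq2, which called 10 higher. The count of higher genes was 3 when any 1 of the 4 libraries was left out. At 48 h 4 were called higher (Polk, Chek2, Rad50 and Msh6) and 0 lower, where 5.35% and 2.48% of all genes were, with 1 lower at an unadjusted p under 0.05 and 0 by DESeq2; with 1 library left out the count of higher genes was 1 to 3. Polk responded most, with 65.04 and 66.8 CPM under ATP MCndM at 24 h (0.50 ± 0.057, adjusted p = 1e-06) and 85.6 and 80.9 CPM at 48 h (0.72 ± 0.057, adjusted p = 4.1e-09), both between the vehicle and the ENPP1+ATP libraries.

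AMP MCndM, which adds the product of ENPP1 itself, gave values near those of ENPP1+ATP MCndM. The comparisons share their vehicle libraries, so their values are given side by side. At 24 h 26 genes were called higher than vehicle and 1 lower, where 25.3% and 27.5% of all genes were, and at 48 h 12 higher and 3 lower, where 21.1% and 22.9% were, with members' medians of 0.67 and 0.12. Brip1 stood at 108 and 93.5 CPM and Brca1 at 184 and 171 CPM under AMP MCndM at 24 h, and their log2 fold changes were 1.20 and 0.93 under AMP beside 1.32 and 1.08 under ENPP1+ATP. The genes lower under AMP were Fancc at 24 h (−0.37 ± 0.090, adjusted p = 0.0012), and Fancc (−0.29 ± 0.092), Rad51c (−0.64 ± 0.086, adjusted p = 1.2e-06) and Chek1 (−0.27 ± 0.072, adjusted p = 0.0037) at 48 h. Chek1 stood at 37.5 and 32.3 CPM under AMP at 24 h, above vehicle (0.18 ± 0.070, adjusted p = 0.031), and at 28.4 and 26.4 CPM at 48 h, below both vehicle libraries. Its call at 24 h was lost when any 1 of 3 libraries was left out and at 48 h when either of 2 was, as was the call of Fancc at 48 h. The interaction with time under AMP was called lower in 21 genes and higher in 1, where 14.4% and 17.3% of all genes were, with a median of −0.38.

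Compared directly, AMP and ENPP1+ATP MCndM differed by a call in 2 genes at 24 h, where 2.60% of all genes were called higher under AMP and 3.65% lower. Called or not, 26 of the 33 genes were lower under AMP (median −0.07), where 50.2% of all genes were, and 23 were lower at 48 h (median −0.07), where 46.7% were. At 24 h the AMP libraries lay below those of ENPP1+ATP in 13 genes and above in 2, where 24.0% of all genes lay below and 22.4% above. Polk was higher under AMP, at 158 and 148 CPM (0.24 ± 0.054, adjusted p = 0.009), and Polh was lower, at 67.8 and 68.1 CPM against 84.6 and 80.6 CPM under ENPP1+ATP (−0.28 ± 0.051, adjusted p = 0.0018). The Polk call was lost when any 1 of 3 of the 4 libraries was left out. At 48 h 1 gene was lower under AMP, Rbbp8 (54.9 and 54.6 CPM against 67.7 and 63.04 CPM; −0.26 ± 0.052, adjusted p = 0.044), and 0 higher, with 0 at an unadjusted p under 0.05 and 0 by DESeq2, where 0.0727% and 0.0895% of all genes were called. The Rbbp8 call was lost when only the groups compared were fitted or when any 1 of 3 of the 4 libraries was left out. Against ATP MCndM, ENPP1+ATP MCndM gave 30 genes higher and 0 lower at 24 h, where 21.8% and 22.1% of all genes were called, and 16 higher and 4 lower at 48 h, where 18.2% and 21.3% were. At 24 h 0 genes were lower at an unadjusted p under 0.05 and 0 by DESeq2. Polk was higher than under ATP by 0.97 ± 0.056 at 24 h and 1.14 ± 0.056 at 48 h. The 4 genes lower than under ATP at 48 h were Fancc (−0.44), Fancl (−0.43), Rad51c (−0.30) and Atr (−0.20), and their count fell to 2 without the 48 h ATP library of replicate 2, without the 48 h ENPP1+ATP library of replicate 1 and when only these groups were fitted.

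Markers of dividing cells moved beside these genes. The paper reports cell-cycle arrest and apoptotic death of CFs under ENPP1+ATP MCndM. Marker RNA is not a count of dividing cells, and whether more cells divided was not tested. Of 16 proliferation markers 13 were called higher and 1 lower under ENPP1+ATP MCndM at 24 h (median 0.58), and their summed level was 3145 to 3152 CPM under vehicle and 5172 to 5494 CPM under ENPP1+ATP. At 48 h 9 were higher and 0 lower, with 3241 to 3264 CPM under vehicle and 3911 to 3956 CPM under ENPP1+ATP. Mki67, a protein of dividing nuclei, rose by 1.97 at 24 h and 0.75 at 48 h, and Top2a, a topoisomerase of mitotic chromosomes, by 1.00 and 0.35. The p53 targets Cdkn1a, an inhibitor of the cell cycle, and Mdm2, the ubiquitin ligase of p53, rose by 1.97 and 1.94 at 24 h and by 2.30 and 2.70 at 48 h. The 8 fibroblast markers went from 6800 to 7138 CPM in sum under vehicle to 3312 to 3417 CPM under ENPP1+ATP at 24 h, with 1 called higher and 6 lower, and 8 macrophage markers from 3.15 to 3.17 CPM to 21.6 to 27.7 CPM, with 6 of the 8 under 1 CPM in every library (C1qa, C1qb, C1qc, Adgre1, Mrc1 and Fcgr1). Endothelial markers summed to 12.9 to 23.3 CPM and cardiomyocyte markers to 10.96 to 22.6 CPM over all CF libraries. The part of any of these in the result was not tested.

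Other repair genes moved in both directions. Of 91 further repair genes tested in CFs, 38 were called higher and 19 lower at 24 h under ENPP1+ATP MCndM (median 0.11), and 27 higher and 26 lower at 48 h (median −0.02). Over all genes tested these shares were 23.9% and 25.3% at 24 h and 20.8% and 24.4% at 48 h. Base excision and single-strand break repair, with 18 genes, had 5 higher and 7 lower at 24 h and 3 and 8 at 48 h, and end joining, with 9 genes, had 3 higher and 2 lower at 24 h. Further genes of homologous recombination had 7 higher and 2 lower of 14, and mismatch repair 4 higher and 0 lower of 6. The Fanconi pathway had 5 higher and 1 lower of 9 further genes, checkpoint signalling 8 and 2 of 16, nucleotide excision repair 3 and 3 of 13, and lesion bypass 3 and 2 of 6. Among the largest rises at 24 h were those of Mdc1, which marks chromatin at breaks (1.56, and 0.44 at 48 h), Ercc5, the nuclease that cuts beside bulky lesions (1.26 and 1.46), and the junction nucleases Gen1 (1.23 and 0.28) and Eme1 (1.16 and 0.33). Among the largest falls were those of Apex1, the endonuclease of abasic sites (−1.33 and −0.88), the glycosylases Nthl1 (−0.91 and −0.72) and Ung (−0.68 and −0.71), and Prkdc, the kinase of end joining (−0.76 and −0.25). Over the 20 CF libraries, which share depth and media, the genes whose log2 levels ran most like those of Ddb2 were 2610020C07Rik, Cdc45 and Fam161b, with Pearson r of 0.956, 0.955 and 0.954, and those most like Chek1 were Cisd2, Hat1 and Hpf1, with 0.885, 0.862 and 0.861, given as a description.

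In NRVM the checkpoint kinases Chek1 and Atm fell, and 14 other genes rose. Under ENPP1+ATP MCndM at 24 h 14 of the 33 genes were called higher and 2 lower, where 28.6% of all genes tested were called higher and 27.4% lower, and the members' median was 0.13 against about 0 over all genes. By role, 4 of 9 genes of homologous recombination, 5 of 9 of the Fanconi pathway, 0 of 4 kinases, 3 of 6 of break sensing and resection and 2 of 5 of lesion recognition and bypass were called higher. With 1 library left out the count of higher genes was 11 to 13. Chek1 stood at 272, 266 and 275 CPM under vehicle and 149, 159 and 167 CPM under ENPP1+ATP, 58.6% of vehicle (−0.77 ± 0.043, adjusted p = 1.2e-19). Under AMP it stood at 160.4, 165 and 169 CPM (−0.72 ± 0.043) and under ATP at 165, 165 and 167 CPM (−0.71 ± 0.043), whereas under ENPP1 it stood at 262, 277 and 260.0 CPM. All 9 libraries of the media with ENPP1+ATP, AMP or ATP lay below all 6 of vehicle and ENPP1. Under vehicle Chek1 had 3960, 3858 and 3618 counts, and the next highest of the 33 genes, Msh6, had 980, 943 and 912. The summed level of the 33 genes under vehicle was 786 to 818 CPM, so Chek1 made up a large part of it. The overlap of the rat gene model with its neighbours was not checked, so whether all these reads come from Chek1 is not known. Atm was the other gene that fell, from 39.3, 37.5 and 37.3 CPM under vehicle to 30.01, 32.3 and 31.02 CPM under ENPP1+ATP (−0.29 ± 0.077, adjusted p = 0.0015), with no overlap.

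Of the genes that rose in NRVM, 4 belong to the Fanconi core complex and are low, whereas its members Fanca (−0.11 ± 0.14, adjusted p = 0.55) and Fancm (−0.12 ± 0.084, adjusted p = 0.23) were not called. The values of Fancl, Fancb, Fancc and Nbn in each library are given by a choice made after they were seen. Fancl stood at 4.400, 4.89 and 4.26 CPM under vehicle and 9.02, 8.75 and 6.85 CPM under ENPP1+ATP (0.86 ± 0.15, adjusted p = 5.6e-06). Fancb stood at 2.54, 2.07 and 1.98 CPM and 5.001, 4.22 and 4.52 CPM (1.05 ± 0.21, adjusted p = 5e-05), and Fancc at 2.68, 3.17 and 1.75 CPM and 4.44, 4.28 and 4.91 CPM (0.83 ± 0.20, adjusted p = 0.00061). Their groups did not overlap, where 31.8% of all genes tested lay above and 30.5% below, and Fancg rose by 0.57 ± 0.20. Nbn, the subunit of the break sensor that recruits Atm, stood at 49.9, 48.7 and 50.1 CPM under vehicle and 72.4, 69.4 and 69.6 CPM under ENPP1+ATP (0.51 ± 0.054, adjusted p = 8.8e-11). Rad50 stood at 63.05, 63.7 and 56.1 CPM and 69.1, 76.4 and 79.5 CPM (0.30 ± 0.059), and Msh6 at 67.4, 64.96 and 69.4 CPM and 84.9, 80.8 and 80.3 CPM (0.29 ± 0.055, adjusted p = 2e-05). Of Ddb2, at 1.51, 1.86 and 1.67 CPM under vehicle and 1.97, 3.38 and 3.04 CPM under ENPP1+ATP, the difference was 0.74 ± 0.26 (adjusted p = 0.015), a call lost when any 1 of 3 of the 6 libraries was left out, as was that of Fancg. Palb2 lost its call when any 1 of the 6 was left out. Brca2 rose by 0.60 ± 0.13, whereas Brca1 (0.17 ± 0.11, adjusted p = 0.2), Polk (0.25 ± 0.17, adjusted p = 0.2) and Exo1 (−0.24 ± 0.15, adjusted p = 0.18) were not called.

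**Figure D3:**
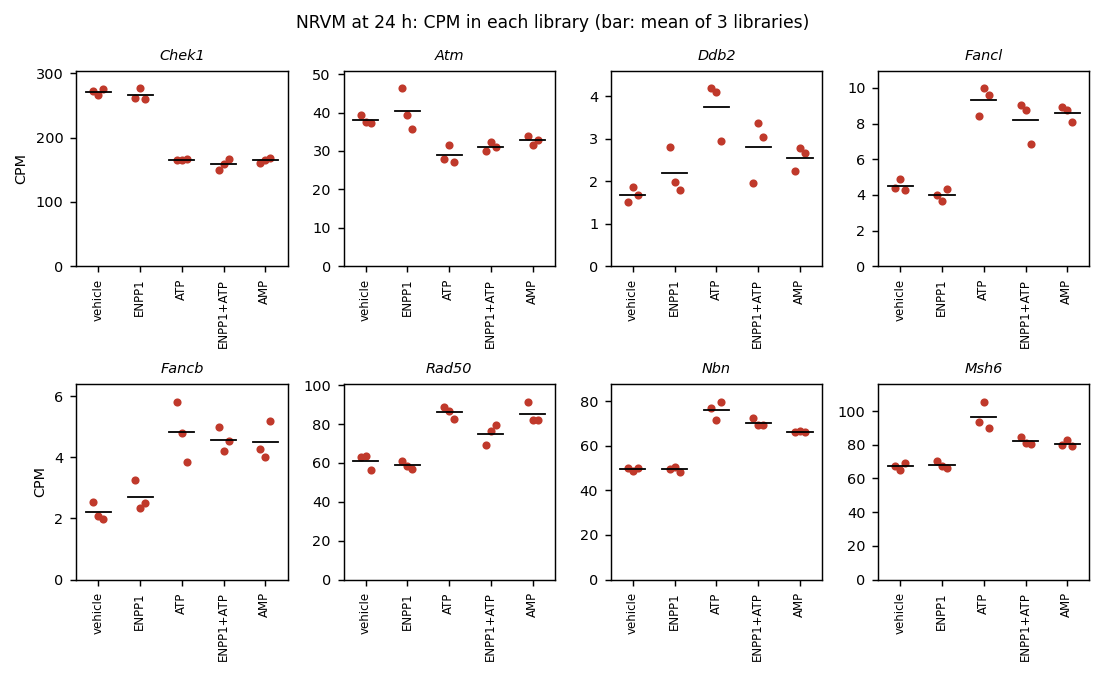
Levels in CPM of 8 of the genes in each NRVM library under the 5 media at 24 h, with a dot per library and a bar for the mean of 3 libraries. Chek1 is lower in every library of the ENPP1+ATP, AMP and ATP media than in any vehicle or ENPP1 library, while Fancl, Fancb and Nbn are higher.

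ATP MCndM without ENPP1 also moved many of these genes in NRVM. Under it 16 genes were called higher and 2 lower, where 30.2% and 29.7% of all genes were, and under AMP 17 higher and 2 lower, where 29.2% and 28.0% were, with medians of 0.28 and 0.36. These comparisons share the vehicle libraries. The genes lower under each were Chek1 and Atm. Under ATP Atm stood at 27.95, 31.6 and 27.2 CPM (−0.39 ± 0.077), and under AMP at 33.96, 31.4 and 32.95 CPM (−0.21 ± 0.077); without the vehicle library of replicate 1 the count of genes lower under AMP was 1. Fancl rose by 1.05 ± 0.15 under ATP and 0.93 ± 0.15 under AMP, and Ddb2 by 1.15 ± 0.25 and 0.60 ± 0.26. ENPP1 MCndM gave 0 calls in either direction, where 0.0% of all genes were called, with 1 higher and 0 lower at an unadjusted p under 0.05 and 0 by DESeq2. Between ENPP1+ATP and ATP MCndM 1 gene was higher, Mre11a (0.19), and 3 lower, Palb2 (−0.40), Msh6 (−0.23) and Rad50 (−0.20), where 14.1% and 13.5% of all genes were called; Mre11a was not called by DESeq2. Beside these, 3 of 15 proliferation markers were called higher and 5 lower under ENPP1+ATP, with a summed level of 770 to 797 CPM under vehicle and 748 to 775 CPM under ENPP1+ATP. Under ATP 7 were higher and 3 lower (867 to 921 CPM), and under AMP 10 higher and 3 lower (926 to 965 CPM). The 7 fibroblast markers summed to 22939 to 24321 CPM under vehicle and 7672 to 8052 CPM under ENPP1+ATP, and the 5 cardiomyocyte markers to 21658 to 22377 CPM and 19170 to 20004 CPM. Under ATP the fibroblast markers summed to 9892 to 11145 CPM and the cardiomyocyte markers to 12522 to 13325 CPM, and under AMP to 10819 to 11497 CPM and 21858 to 23281 CPM. Endothelial markers summed to 27.5 to 34.4 CPM under vehicle, 43.4 to 48.5 CPM under ENPP1+ATP, 61.7 to 85.95 CPM under ATP and 37.3 to 98.2 CPM under AMP, and macrophage markers to 2.97 to 3.37, 7.03 to 8.34, 11.45 to 13.95 and 6.51 to 8.98 CPM in the same order, with C1qa, C1qb, C1qc and Adgre1 under 1 CPM. Their part in the result was not tested. Cdkn1a and Mdm2 rose by 1.04 and 1.02 under ENPP1+ATP and by 1.21 and 1.06 under AMP.

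Set side by side, 13 of the 28 genes called higher in CFs at 24 h under ENPP1+ATP MCndM, and 13 of the 14 called higher in NRVM, were called higher in both. Among the 10945 genes tested in both tables under the same symbol, the shares were 42.0% of those called higher in CFs and 42.6% of those called higher in NRVM, and since 28 of the 33 genes were called in CFs most of any 14 of them would be shared. Chek1 was called in opposite directions, 0.24 in CFs and −0.77 in NRVM, where it was not checked that all its reads come from Chek1. The difference between the cell types was not tested, since the tables differ in species and scaling.

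**Figure D4:**
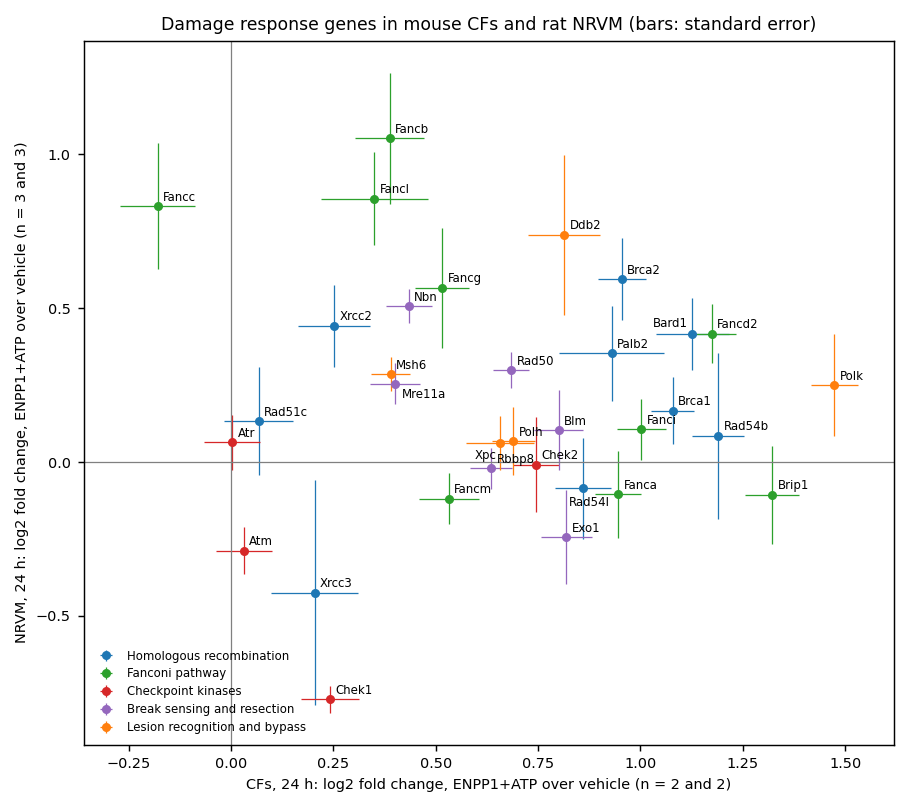
Log2 fold change of each of the 33 genes under ENPP1+ATP MCndM against vehicle MCndM at 24 h, in CFs on the horizontal axis and in NRVM on the vertical axis, with bars for the SE. Most points lie to the right of 0, Polk is farthest right with 1.47 in CFs and 0.25 in NRVM, and Chek1 lies lowest with −0.77 in NRVM.

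In single non-myocytes of the infarcted heart the genes were sparse, and their summed level was close between genotypes. With 1 library per genotype there is no test, and intervals cover counting error only. After filtering, 7255 of 7460 barcodes of ENPP1CKO and 5240 of 5347 of the control remained, with median counts of 3367 and 3701 per cell, and 68 barcodes were shared. Enpp1 itself stood at 21.0 CPM in ENPP1CKO (566 counts) and 68.8 CPM in the control (1527 counts). Summed over the 33 genes, the level was 169.0 CPM [95% interval 164.2 to 174.0] in ENPP1CKO and 164.1 CPM [158.8 to 169.5] in the control, a log2 ratio of 0.04 [−0.02 to 0.11]. Of the 33 genes 31 had at least 20 counts in both libraries together (all but Xrcc3 and Fanci), of which 15 were higher and 16 lower in ENPP1CKO. Past 1.5-fold were Fancb (0.66 [−0.41 to 1.80]) and Polh (1.13 [−0.29 to 2.78]) on the higher side and Fanca (−1.17 [−2.74 to 0.26]) and Exo1 (−1.19 [−2.63 to 0.14]) on the lower side, where 9.44% and 9.75% of genes were, and each of these 4 intervals includes 0. The interval left out 0 for Polk (11.9 CPM in ENPP1CKO and 9.55 CPM in the control; 0.32 [0.06 to 0.57]) and Fancc (5.304 CPM in ENPP1CKO and 3.92 CPM in the control; 0.44 [0.04 to 0.84]), both under 1.5-fold. The most abundant member, Rad50, stood at 35.6 CPM in ENPP1CKO and 33.7 CPM in the control (0.08 [−0.06 to 0.22]), Atm at 11.8 CPM in ENPP1CKO and 10.1 CPM in the control (0.22 [−0.03 to 0.48]), and Chek1 at 1.15 CPM in ENPP1CKO and 1.22 CPM in the control (−0.08 [−0.87 to 0.72]).

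**Figure D5:**
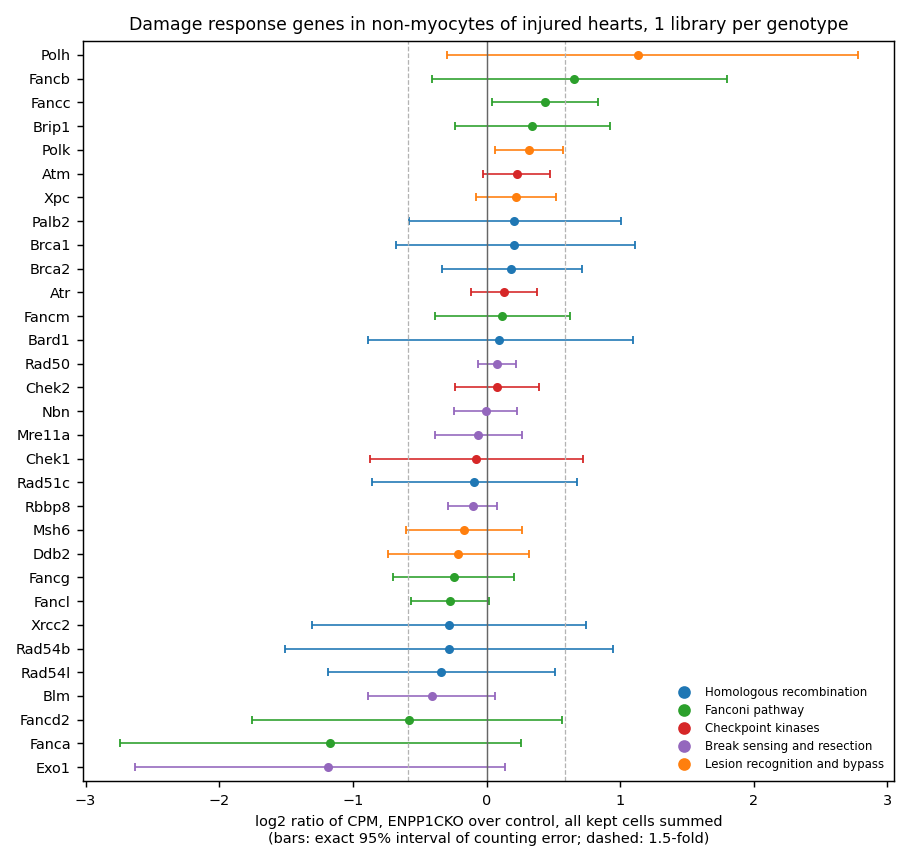
Log2 ratio of each of the 31 genes with at least 20 counts, ENPP1CKO over control, in all non-myocytes at 7 days after infarction, with exact 95% intervals that cover counting error and dashed lines at 1.5-fold. Most points lie within 1.5-fold, and the intervals of Polk and Fancc lie above 0.

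By cell class, the summed log2 ratio was 0.08 [−0.01 to 0.17] in fibroblast-like cells (3690 and 1898 cells), −0.04 [−0.15 to 0.08] in macrophage-like cells (2011 and 2426) and 0.17 [−0.15 to 0.51] in endothelial-like cells (932 and 192). The macrophage-like ratio turned to 0.093 with a TMM factor, 0.018 at Leiden resolution 1.0 and 0.0079 with predicted doublets kept. Classes were named from fixed markers on clusters rebuilt here, and the libraries filled them unevenly. Of the fibroblast-like cells, 1 cluster led by hemoglobin genes held 1711 of ENPP1CKO and 301 of the control, and of the macrophage-like cells 1 cluster held 57 and 825. Another fibroblast-like cluster, of 27 and 116 cells, had Wt1 and Krt19 among its leading genes, known from the epicardium. It carried 7 of 8 fibroblast markers and, like the other fibroblast-like clusters, had none of them among its 10 leading genes. In alternatives chosen after seeing the data, the fibroblast-like ratio was −0.01 [−0.12 to 0.10] without the hemoglobin cluster, 0.19 [0.09 to 0.28] without the Wt1 cluster (3663 and 1782 cells) and 0.10 [−0.01 to 0.22] without both. In fibroblast-like cells 21 genes had enough counts. Xpc was past 1.5-fold on the higher side (8.78 CPM in ENPP1CKO and 5.503 CPM in the control; 0.67 [0.23 to 1.13]) and Chek1 on the lower side (−0.69 [−1.89 to 0.51]), where 6.44% and 8.91% of genes were. Intervals left out 0 also for Mre11a (0.56 [0.06 to 1.08]), Polk (0.38 [0.05 to 0.72]) and Rbbp8 (−0.37 [−0.64 to −0.10]). Without the Wt1 cluster Rbbp8 turned to 0.23 [−0.10 to 0.56], Chek1 was at −0.48 [−1.76 to 0.82], and Xpc was at 0.68 [0.21 to 1.16]; without both clusters Xpc was at 0.32 [−0.26 to 0.90] and Mre11a at 0.71 [0.04 to 1.40]. In macrophage-like cells 19 genes had enough counts, with 0 past 1.5-fold on the higher side and 1 on the lower side, Ddb2 with 5 and 16 counts (−1.43 [−3.23 to 0.09]), where 4.14% and 14.8% of genes were. In endothelial-like cells 7 genes had enough counts, with Atm (1.38 [−0.12 to 3.34]) and Chek2 (1.09 [−0.06 to 2.49]) past 1.5-fold on the higher side and 0 on the lower side, where 13.2% and 13.4% of genes were, and both intervals include 0.

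The genes differed in where their counts lay. An unnamed cluster led by Ube2c, Cdkn3, Hmmr and Birc5, genes of mitosis, held 94 cells of ENPP1CKO and 116 of the control and 2.31% and 4.07% of all counts; it was set apart, by a limit chosen after seeing the data, because its proliferation markers summed to at least 1000 CPM. Of Fancd2 53.8% of counts in ENPP1CKO and 25% in the control came from this cluster, of Brca1 39.3% and 25%, of Brip1 18.2% and 30.2% and of Chek1 19.4% and 29.6%, whereas of Atr 2.52% and 4.20% and of Polk 2.49% and 4.72% did. Of the 31 genes with enough counts, 8 had in both libraries a level in the cluster above 5 times that in the other cells (Brca1, Bard1, Rad54l, Rad54b, Fancd2, Brip1, Chek1 and Exo1), where 1.41% of all genes did, and 10 had a level under 2 times that in the other cells (Fancc, Fancg, Atm, Atr, Rad50, Nbn, Xpc, Ddb2, Polk and Msh6), where 86.2% of all genes did. These levels rest on few counts, from 8 and 15 in all for Exo1 to 66 and 43 for Brip1 among the 8 genes. The summed level within the cluster was 353.4 CPM in ENPP1CKO and 272.4 CPM in the control (0.38 [0.11 to 0.64]), and without the cluster the ratio over the remaining cells was 0.05 [−0.02 to 0.11]. The cluster carried 8 of 8 macrophage markers and 7 of 8 fibroblast markers, so it mixes cell types. Their shares may differ between the genotypes and were not compared. Within the cluster 6 genes had enough counts, of which Rbbp8 was past 1.5-fold on the higher side (0.75 [−0.07 to 1.58]) and 0 on the lower side, where 10.7% and 13.4% of genes were. Outside it Polh was past 1.5-fold on the higher side (1.01 [−0.43 to 2.67]) and 0 of 27 genes on the lower side, where 9.40% and 9.94% were. Proliferation markers over all cells summed to 139.5 CPM in ENPP1CKO and 202.4 CPM in the control (−0.54 [−0.60 to −0.47]), and their part in the values of the genes was not tested.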

How the data were processed

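RNA sequencing was analysed from CFs (20 libraries), NRVM (15 libraries) and non-myocytes (2 single-cell libraries). The authors deposited read counts per gene for the CFs and NRVM and counts of unique molecules per gene and barcode for the single cells, all whole numbers without normalization. The submitters' processing notes name STAR 2.5.3a, Cell Ranger and the builds mm10 and rn6, while the program that counted reads and its strand setting are not given in the sources used here. GEO labels the NRVM libraries as mouse, whereas their source and gene table are rat. No value column was left unused.

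Counts were fitted in R 4.3.3 with edgeR 4.0.16 (filterByExpr, TMM factors, robust quasi-likelihood fit with 1 mean per medium and time), separately for CFs and NRVM, after a test on simulated data. Benjamini-Hochberg adjustment took in every gene tested. Libraries varied by a biological coefficient of 0.0590 in CFs and 0.0499 in NRVM, and no pair of replicates agreed within counting noise. DESeq2 1.42.0 served as an alternative, beside other size factors, no filter, a replicate block, only the groups compared, and each library left out.

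Barcodes under 200 genes or over 20% mitochondrial counts were dropped, predicted doublets (2.02% and 1.29% of barcodes) were removed, and cells were clustered with scanpy 1.11.5 (2000 variable genes without the 33 genes and other repair genes, 30 components, 15 neighbours, Leiden resolution 0.5). Counts were summed per library and class, with exact 95% Poisson and conditional binomial intervals. Sequences are RefSeq promoters.

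The genes and lists were chosen with earlier results of these data known. All 33 genes may be named; values per library are given for the kinases, the lesion genes and the 4 genes of each other role with the largest change in CFs under ENPP1+ATP MCndM at 24 h, while those of Rad51c and Fancc and, in NRVM, of Fancl, Fancb and Nbn were added after their values were seen. Further repair genes were named by size, 5 per direction, among those whose mean log2 CPM reached 2. Some genes that this rule takes in are not reported here. One symbol of that list of 92, misspelled, matched no gene.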

Additional observations from a re-analysis of the deposited data

Results flagged for a closer look

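The effect of ENPP1+ATP MCndM in CFs differed between the times: by the edgeR interaction test, 24 of the 33 genes were lower at 48 h than at 24 h and 2 were higher, with 21 lower and 1 higher under AMP MCndM. The genes lower under ENPP1+ATP, with the difference of log2 fold changes, were Fanca (−0.95), Fancd2 (−0.87), Bard1 (−0.83), Rad54b (−0.77), Brip1 (−0.76), Rad54l (−0.74), Exo1 (−0.71), Brca2 (−0.65), Brca1 (−0.62), Fancl (−0.61), Blm (−0.60), Rad51c (−0.58), Ddb2 (−0.53), Polh (−0.50), Fanci (−0.49), Palb2 (−0.48), Fancg (−0.43), Fancm (−0.42), Rbbp8 (−0.40), Xpc (−0.38), Nbn (−0.38), Xrcc2 (−0.36), Chek1 (−0.33) and Mre11a (−0.25). Those higher were Polk (0.39) and Msh6 (0.28). With 1 of the 8 libraries left out 18 to 23 genes were lower; calls were lost for Chek1 (in 2 of the 8), Xpc (3), Fancl (4), Mre11a (5), Palb2 (6) and Xrcc2 (6). Under other settings Mre11a, Palb2 and Xrcc2 lost theirs.

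At 24 h the treated libraries of 3 of the 33 genes (9.09%) lay on opposite sides of vehicle in CFs and NRVM under each of 2 media. This is below the share over the 10945 genes of the same symbol, 18.0% under ENPP1+ATP and 18.5% under AMP MCndM. The values are thus given as a description, and the difference between the cell types was not tested. Chek1 was called in both cell types, whereas Fancc under ENPP1+ATP was not called in CFs, nor Exo1 under ENPP1+ATP and Rbbp8 under AMP in NRVM. Under ENPP1+ATP MCndM these were Chek1 (0.24 in CFs and −0.77 in NRVM), Exo1 (0.82 and −0.24) and Fancc (−0.18 and 0.83). Under AMP MCndM they were Chek1 (0.18 and −0.72), Rbbp8 (0.59 and −0.15) and Fancc (−0.37 and 0.60).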

How the results depend on the processing

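Of 353 counts and medians recomputed under other settings 337 stayed within their limits (1.5 times for a count, 0.038 in CFs and 0.12 in NRVM, 1 SD between replicates, for a median, the 95% interval for a single-cell ratio) and 16 moved, and of 318 without 1 library 282 stayed and 36 moved; no called result changed direction. For single genes, 64 of 990 values without 1 library lost their call and 9 gained one, and under other settings 14 lost and 8 gained. Where a CF library is left out, the lone library is assumed to vary like the other groups. The cause of a change was not tested.

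The median under AMP MCndM in CFs at 24 h was 0.63 without a filter. Under ATP MCndM 10 genes were higher at 24 h by DESeq2, 2 were higher at 48 h without a filter, and 1 was lower at 48 h when only those groups were fitted. With only the groups compared, 2 genes were lower than under ATP at 48 h under ENPP1+ATP, 0 were lower under AMP than under ENPP1+ATP at 48 h, and 17 were higher and 1 lower at 48 h than at 24 h under vehicle. Under AMP 1 gene was higher at 48 h than at 24 h without a filter, with only those groups, and by DESeq2. In NRVM, 5 genes were lower under ENPP1+ATP than under ATP with only those groups, and 0 higher by DESeq2; Palb2 lost its call under 4 of the settings. In single cells, where no ratio is tested, the macrophage-like ratio turned from below to above 0 (0.093 with a TMM factor, 0.018 at Leiden resolution 1.0 and 0.0079 with doublets kept), and the fibroblast-like ratio turned to −0.013 without the cluster led by hemoglobin genes and rose to 0.19 without the cluster that holds Wt1 and Krt19.

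Without 1 library in turn, in CFs, 48 h against 24 h gave a median of −0.38 to −0.30 and 1 to 2 higher genes under AMP and 0 to 1 higher under vehicle. The AMP interaction had a median of −0.45 to −0.34. AMP against ENPP1+ATP gave 0 to 1 higher and 1 to 3 lower at 24 h and 0 to 1 lower at 48 h. AMP against vehicle gave a median of 0.62 to 0.68 and 1 to 2 lower at 24 h and 1 to 3 lower at 48 h. ATP gave 3 higher at 24 h and 1 to 3 at 48 h. ENPP1+ATP against ATP gave a median of 0.54 to 0.58 at 24 h, and 0.15 to 0.19 with 2 to 3 lower at 48 h, and against vehicle 1 to 2 lower at 48 h. In NRVM, AMP gave 1 to 2 lower, and ENPP1+ATP against ATP 0 to 1 higher.

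Libraries with the same replicate number did not deviate together (correlations of −0.11 to 0.13 in CFs at the same time and −0.17 to 0.12 in NRVM), so the numbers do not pair them. With a replicate block the genes higher under ENPP1+ATP were 28 at 24 h and 18 at 48 h in CFs and 14 in NRVM, and those higher under AMP in NRVM were 15. Depth limits the single cells, where 2 of the 33 genes were under 20 counts.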
